A study of Mus musculus with 8 samples.

Results

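The 10 genes described here encode subunits of integrins that bind collagen, fibronectin and related matrix proteins, and were measured in the newborn mouse aorta with and without Lox. The members were taken by name, as the genes whose symbol the platform annotation gives as Itga1, Itga2, Itga4, Itga5, Itga8, Itga11, Itgav, Itgb1, Itgb3 or Itgb8. They were chosen with earlier results of these data known. All 10 were measured, of 22184 genes with a probe set of a single symbol, and all 10 were among the 16638 genes bright enough to be tested. RNA levels were measured on 8 Affymetrix arrays, each hybridised with 1 pool of 8 pups. Pups were of the albino C57BL/6J background and were killed on the day of birth (p0). The 4 groups were the ascending aorta of wild-type (WT) pups, the descending aorta of WT pups, the ascending aorta of Lox knockout (KO) pups and the descending aorta of KO pups, with 2 arrays each. The ascending segment reached from the aortic valve to the ductus arteriosus, and the descending segment ended at the diaphragm. Lox encodes lysyl oxidase, which starts the crosslinking of collagen and elastin. The labels call the KO a lysyl oxidase knockout and name no Cre or allele. The labels give neither sex nor litter, and do not say whether both segments came from the same pups.

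An integrin is a pair of an alpha and a beta subunit that spans the cell membrane and ties the matrix outside to actin inside through talin, kindlin and other adaptors. Itga1, Itga2 and Itga11 pair with Itgb1 to form collagen receptors. Itga5, Itga8 and Itgav form receptors for the RGD motif of fibronectin and other ligands, and Itga4 with Itgb1 binds fibronectin and the endothelial protein Vcam1. Itgb3 and Itgb8 both pair with Itgav, and the receptor made with Itgb8 binds latent TGF-beta rather than fibronectin. In the vessel wall these receptors hold smooth muscle cells and fibroblasts to the matrix that Lox crosslinks.

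Values are deposited log2 signals, in which a difference of 1 is a doubling, and levels of different probe sets are not compared. A gene is said to rise, fall or change where limma gave a Benjamini-Hochberg adjusted p under 0.05 over all 16638 genes. Lox was at 11.24 to 11.60 on the WT arrays and at 8.51 to 8.87 on the KO arrays, which checked the genotype labels, although the sources used here do not place its probes within or outside the deletion. The arrays of a group had correlations of 0.988 to 0.992 over the 16638 genes tested. Smooth muscle markers were bright on all 8 arrays, with Acta2 at 12.42 to 12.63 and Myh11 at 10.55 to 10.92, so the defining markers of the aortic media were present. Several arrays carried markers of neighbouring tissue. The lung gene Sftpc was at 8.37 and 10.15 on the WT descending arrays and at 4.50 to 5.07 on the other 6. Another lung gene, Scgb1a1, was highest on WT ascending replicate 2, at 8.25, and was at 4.11 to 4.86 on the KO arrays. Lung markers summed, on the linear scale, to 910 and 1728 on the WT descending arrays and 626 on WT ascending replicate 2. Their sums were 320 on WT ascending replicate 1 and 291 to 340 on the KO arrays. The liver gene Alb was at 9.05 and 10.20 on the KO descending arrays and at 7.20 to 8.57 elsewhere. The T cell gene Cd3d was at 7.71 on WT ascending replicate 1 and at 4.69 to 5.78 elsewhere. Skeletal muscle markers summed to 3194 on KO descending replicate 1, 1858 on WT ascending replicate 2 and 559 to 1370 elsewhere. Because the tissue was measured in bulk, fewer cells of a type and less RNA per cell cannot be told apart.

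Promoter sequences were found for 9 of the 10 members in the RefSeq table of build GRCm38.p6. The 250 bases before the start are shown for the 3 members whose level changed most between genotypes or segments, Itga11, Itga4 and Itgb8, because the results below turn on them. Capitals mark an E-box (CANNTG), the core of a SMAD site (CAGAC) and a GC box (GGGCGG), searched on both strands. The Itga11 promoter lies at chr9:62677605-62677854 on the plus strand, the Itga4 promoter at chr2:79255176-79255425 on the plus strand and the Itgb8 promoter at chr12:119238277-119238526 on the minus strand.
Itga11: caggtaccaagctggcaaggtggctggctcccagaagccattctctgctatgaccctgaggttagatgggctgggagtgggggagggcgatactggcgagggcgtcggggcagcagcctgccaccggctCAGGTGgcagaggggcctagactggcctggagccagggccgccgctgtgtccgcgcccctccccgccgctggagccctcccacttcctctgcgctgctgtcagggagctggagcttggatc
Itga4: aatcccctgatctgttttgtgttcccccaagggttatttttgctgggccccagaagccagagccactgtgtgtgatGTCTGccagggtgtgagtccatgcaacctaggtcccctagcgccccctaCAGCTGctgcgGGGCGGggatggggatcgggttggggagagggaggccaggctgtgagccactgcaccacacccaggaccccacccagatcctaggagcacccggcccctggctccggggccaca
Itgb8: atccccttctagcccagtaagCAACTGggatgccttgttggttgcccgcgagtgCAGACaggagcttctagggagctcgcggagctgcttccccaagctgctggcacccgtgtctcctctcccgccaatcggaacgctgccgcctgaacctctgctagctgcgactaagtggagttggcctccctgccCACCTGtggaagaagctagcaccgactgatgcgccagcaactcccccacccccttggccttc
Itga11 held 1 marked match, an E-box 121 bases before the start. Itga4 held an E-box at 125, a GC box at 114 and a SMAD core at 174 bases before the start, and Itgb8 held E-boxes at 229 and 62 and a SMAD core at 196. Over all 32851 promoters of the same length, 66.2% held an E-box, 42.2% a SMAD core and 32.7% a GC box. No TATA box (TATAAA), AP-1 site (TGANTCA), TEAD site (GGAATG) or CArG box lay in these 3 windows. The GC content was 68.4% for Itga11, 64.0% for Itga4 and 62.4% for Itgb8, against a median of 52.4% over all promoters.

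The first question was whether these receptors differed without Lox. In the ascending aorta 3 of the 10 members rose in the KO and 0 fell, namely Itga11, Itga4 and Itgb3, and the same 3 rose and 0 fell in the descending aorta. At an unadjusted p under 0.05, the counts were 3 higher and 0 lower in the ascending aorta and 4 higher and 0 lower in the descending aorta. Of all genes, 19.1% passed that unadjusted threshold in the ascending and 18.8% in the descending aorta, both directions together. Over all genes 1.54% rose and 1.19% fell in the ascending aorta, and 1.46% rose and 0.823% fell in the descending aorta. The median difference of the 10 members, KO minus WT, was 0.12 in the ascending and 0.25 in the descending aorta, where the medians of all genes tested were 0.01 and -0.01. Because the members were chosen with earlier results known, the values for all genes give scale only and do not test the family. The 3 that rose were 1 collagen receptor subunit, 1 subunit for fibronectin and Vcam1, and 1 beta subunit.

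**Figure D1:**
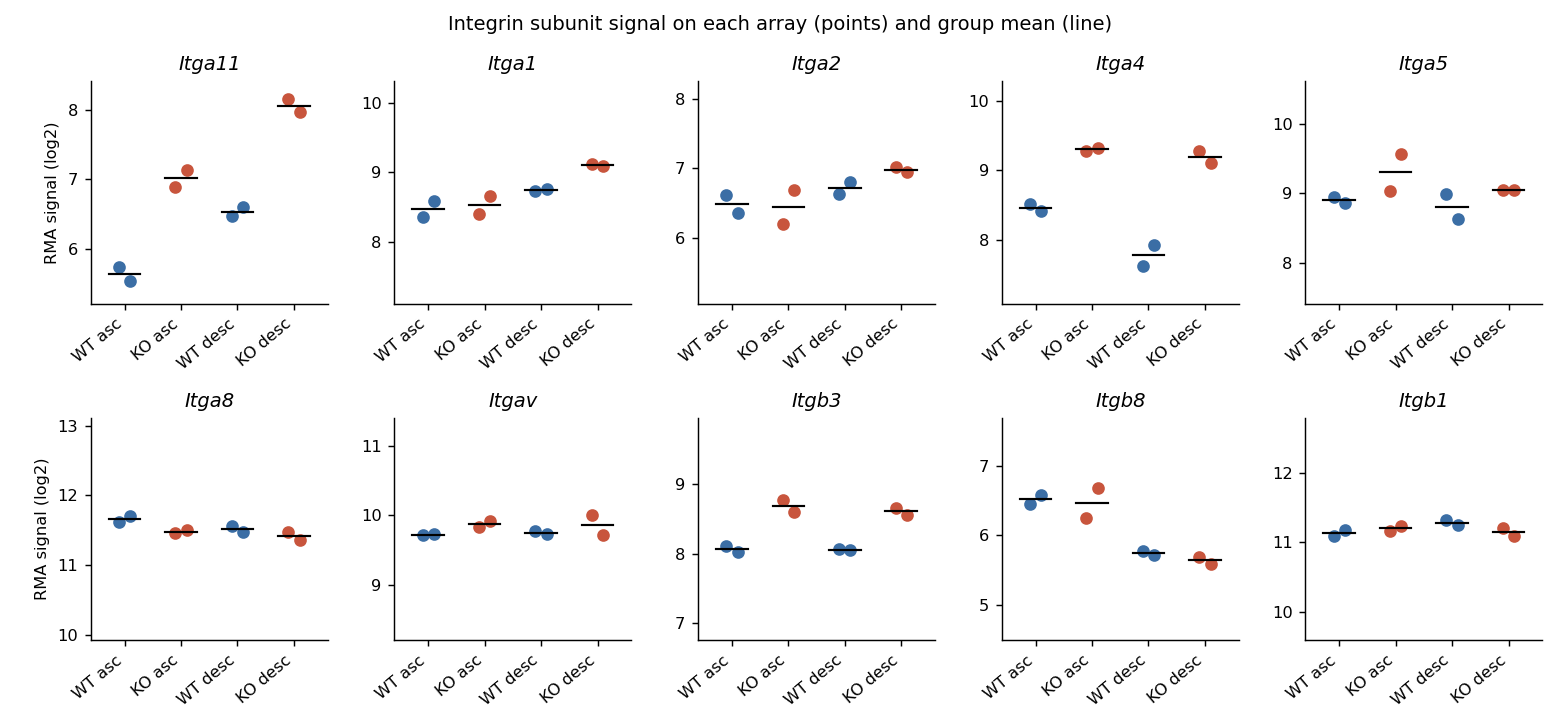
Signal of each of the 10 integrin subunits (log2) on the 8 arrays, with points for arrays and lines for group means of 2 arrays. Itga11 differs in all 4 groups, Itga4 is lowest in the WT descending aorta, Itgb3 is higher on all 4 KO arrays and Itgb8 is higher in the ascending segment.

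Among the members that form collagen receptors, Itga11 had the largest difference. Its signal was 5.75 and 5.55 on the WT ascending arrays and 6.90 and 7.14 on the KO ascending arrays. In the descending aorta it was 6.48 and 6.60 on the WT arrays and 8.15 and 7.97 on the KO arrays. The KO and WT arrays did not overlap in either segment, and the KO descending arrays were the highest of all 8. The rise was 1.37 in the ascending aorta (SE 0.13, 95% confidence interval 1.07 to 1.67, limma adjusted p = 0.00484), or 2.59-fold. The descending rise was 1.52 (SE 0.13, interval 1.22 to 1.82, limma adjusted p = 0.00407), or 2.87-fold. Itga11 ranked 35 from the top of the 16638 genes by the size of the rise in the ascending aorta and 20 in the descending aorta. Both calls ended with all probe sets tested separately, which adjusts over more tests (limma adjusted p = 0.0583 and 0.0511). The call in both segments stood when any 1 of the 8 arrays was left out, with adjusted p up to 0.0331 and 0.0412.

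The other collagen receptor alpha subunits among the members did not pass the test. Itga1, which binds collagen IV as well as fibrillar collagens, was at 8.35 and 8.58 on the WT ascending arrays and at 8.39 and 8.66 on the KO ascending arrays, which overlapped. The descending values were 8.73 and 8.76 in the WT and at 9.12 and 9.09 in the KO. There the KO arrays lay above the WT arrays by 0.36 (interval 0.07 to 0.65), with a limma adjusted p of 0.176. Itga2, best known as a collagen receptor of platelets and epithelium, was at 6.61 and 6.36 in the WT ascending and at 6.19 and 6.68 in the KO ascending aorta. The descending values were 6.63 and 6.80 in the WT and at 7.01 and 6.94 in the KO. Its differences were -0.04 (interval -0.43 to 0.34, adjusted p = 0.918) and 0.26 (interval -0.12 to 0.65, adjusted p = 0.445), so a change of up to 0.65 log2 in the descending aorta was within the interval.

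Of the alpha subunits that bind fibronectin, Itga4 changed. It was at 8.51 and 8.42 on the WT ascending arrays and at 9.28 and 9.32 on the KO ascending arrays. Descending arrays had 7.62 and 7.93 in the WT and 9.28 and 9.11 in the KO. The 4 KO arrays thus had similar levels in both segments, whereas the WT descending arrays were lower than the WT ascending arrays. The rise was 0.84 in the ascending aorta (SE 0.13, interval 0.54 to 1.13, limma adjusted p = 0.0178), or 1.79-fold. The descending rise was 1.42 (SE 0.13, interval 1.13 to 1.71, limma adjusted p = 0.00423), or 2.67-fold. Itga4 ranked 168 from the top by size in the ascending aorta and 26 in the descending aorta. Both calls ended with all probe sets tested separately, the descending one at a limma adjusted p of 0.0521. In a test against 1.2-fold the ascending call also ended. The descending call stood without any 1 array, with adjusted p up to 0.0379. The ascending call ended without WT ascending replicate 1, WT ascending replicate 2, KO ascending replicate 1 or KO ascending replicate 2, at adjusted p of 0.0654 to 0.095 and with a rise of 0.79 to 0.88. A further probe set, shared by Itga4 and its neighbour Cerkl, was dim at 4.84 to 5.27. Its differences were -0.01 and 0.23, with limma adjusted p of 0.975 and 0.54 in a fit of all probe sets, so the rise of Itga4 rests on 1 probe set.

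Itga5, Itga8 and Itgav did not pass. Itga5, the alpha subunit of the classical fibronectin receptor, was at 8.94 and 8.86 in the WT ascending and at 9.03 and 9.57 in the KO ascending aorta. Descending values were 8.99 and 8.63 in the WT and 9.04 and 9.05 in the KO. The KO arrays lay above the WT arrays in both segments, by 0.40 (interval -0.02 to 0.82, adjusted p = 0.284) and 0.24 (interval -0.18 to 0.66, adjusted p = 0.53), and KO ascending replicate 2 was the highest. Itga8, a receptor subunit of smooth muscle that binds nephronectin and fibronectin, was bright throughout, at 11.61 and 11.70 in the WT ascending, 11.46 and 11.50 in the KO ascending, 11.56 and 11.47 in the WT descending and 11.48 and 11.36 in the KO descending aorta. Its differences were -0.18 (interval -0.41 to 0.05, adjusted p = 0.386) and -0.10 (interval -0.33 to 0.13, adjusted p = 0.656). Itgav, the partner of Itgb3 and Itgb8, was at 9.71 to 9.77 on the 4 WT arrays, at 9.84 and 9.92 on the KO ascending arrays and at 10 and 9.72 on the KO descending arrays. Its differences were 0.16 (interval -0.11 to 0.43, adjusted p = 0.503) and 0.11 (interval -0.16 to 0.38, adjusted p = 0.669). Another, dimmer probe set of Itgav, at 4.88 to 5.39, differed by 0.21 and 0.04.

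Among the beta subunits Itgb3 rose. It was at 8.12 and 8.03 on the WT ascending arrays and at 8.77 and 8.60 on the KO ascending arrays. On the descending arrays it was at 8.07 and 8.05 in the WT and at 8.66 and 8.57 in the KO. All 4 KO arrays were above all 4 WT arrays, and the 4 WT arrays lay close together. The rise was 0.61 in the ascending aorta (SE 0.11, interval 0.37 to 0.85, limma adjusted p = 0.0269), or 1.53-fold. The descending rise was 0.55 (SE 0.11, interval 0.31 to 0.80, limma adjusted p = 0.0427), or 1.47-fold. With 2 arrays a group these calls were close to the threshold. The ascending call ended without any of the 4 ascending arrays (adjusted p = 0.0589 to 0.133) and without either WT descending array (0.0525). The descending call ended without any 1 of the 8 arrays, at adjusted p of 0.114 to 0.202 for the 4 descending arrays and 0.0533 to 0.0592 for the 4 ascending arrays. It also ended with the replicate number as a block (0.0518), with no filter on dim genes (0.0663), with median shift scaling (0.0518) and with only the compared arrays (0.0804), and the ascending call ended with only the compared arrays (0.0896). All probe sets tested separately gave adjusted p of 0.143 and 0.216 in the ascending and descending aorta, and a test against 1.2-fold gave 0.287 and 0.509.

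Itgb1, the beta subunit shared by the collagen receptors and by most fibronectin receptors, stayed in a narrow range. It was at 11.08 and 11.18 in the WT ascending, 11.16 and 11.24 in the KO ascending, 11.32 and 11.24 in the WT descending and 11.20 and 11.09 in the KO descending aorta. Its differences were 0.07 (interval -0.17 to 0.30, adjusted p = 0.773) and -0.14 (interval -0.37 to 0.10, adjusted p = 0.521), so changes beyond 0.37 log2 in either direction were outside both intervals. Itgb8 was at 6.45 and 6.58 in the WT ascending and at 6.24 and 6.68 in the KO ascending aorta, and at 5.78 and 5.71 in the WT descending and 5.68 and 5.59 in the KO descending aorta. Its KO minus WT differences were -0.05 (interval -0.39 to 0.28, adjusted p = 0.887) and -0.11 (interval -0.45 to 0.23, adjusted p = 0.741). In the ascending aorta the KO and WT arrays did not overlap for 5 members higher and 1 lower, where 25.6% of all genes were so higher and 23.9% so lower. The descending counts were 6 higher and 2 lower, against 25.6% higher and 25.5% lower of all genes, so separation of 2 arrays from 2 was common across the array.

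**Figure D2:**
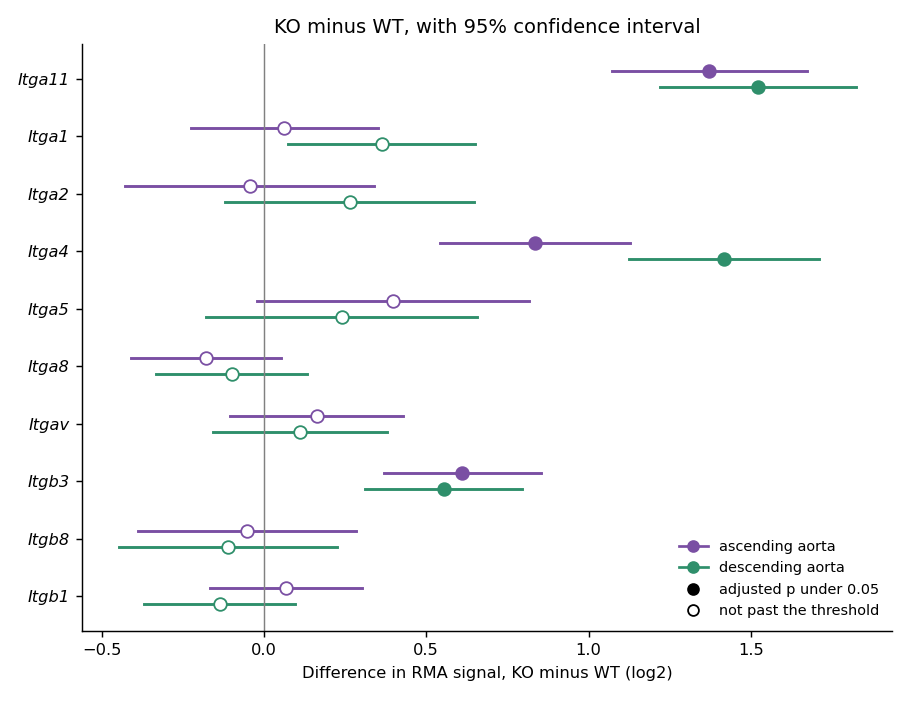
Difference in signal, KO minus WT (log2), for each of the 10 integrin subunits in the ascending and descending aorta, with 95% confidence intervals from limma. Filled points have an adjusted p under 0.05, and Itga11, Itga4 and Itgb3 are the members with filled points, at 0.55 to 1.52 in both segments.

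With both segments averaged, 4 KO arrays against 4 WT arrays, the same 3 members rose and 0 fell, against 6.21% of all genes that rose and 5.22% that fell. These values average the segment differences above and are not independent of them. Itga11 was higher by 1.45 (SE 0.09, limma adjusted p = 0.000319), Itga4 by 1.13 (SE 0.09, adjusted p = 0.000686) and Itgb3 by 0.58 (SE 0.08, adjusted p = 0.00445). These 3 calls stood when any 1 array was left out, and that of Itgb3 ended in a test against 1.2-fold (adjusted p = 0.0847). Itga5 was higher on all 4 KO arrays than on all 4 WT arrays, by 0.32 (SE 0.13), and did not pass (adjusted p = 0.153). It was 1 of 4 members whose arrays did not overlap, 4 higher and 0 lower, where 8.87% of all genes were so higher and 8.13% so lower.

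Whether the KO minus WT difference itself depended on the segment was tested as an interaction. By limma 0 members and 0% of all 16638 genes passed, and at an unadjusted p under 0.05 there were 0 members higher and 1 lower, and 932 genes, or 5.6%, in all. The 1 member was Itga4, whose rise was smaller in the ascending than in the descending aorta by 0.58 (SE 0.18), with an adjusted p of 0.775. For Itga11 the difference between the segments' rises was -0.15 (interval -0.58 to 0.27) and for Itgb3 it was 0.06 (interval -0.29 to 0.40). The intervals leave room for sizeable differences between segments, and none was shown.

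The second question was whether the subunits differed along the aorta. In the WT 2 members were higher in the ascending segment, Itga4 and Itgb8, and 1 was lower, Itga11. In the KO 1 member was higher, Itgb8, and 1 was lower, Itga11. Over all genes 0.511% were higher and 0.974% lower in the WT, and 0.547% were higher and 0.938% lower in the KO. The members' median was -0.01 in the WT and 0.06 in the KO, and the median of all genes was 0.00 in both. The WT comparison uses the same WT arrays as the KO minus WT comparisons, and the KO comparison the same KO arrays.

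**Figure D3:**
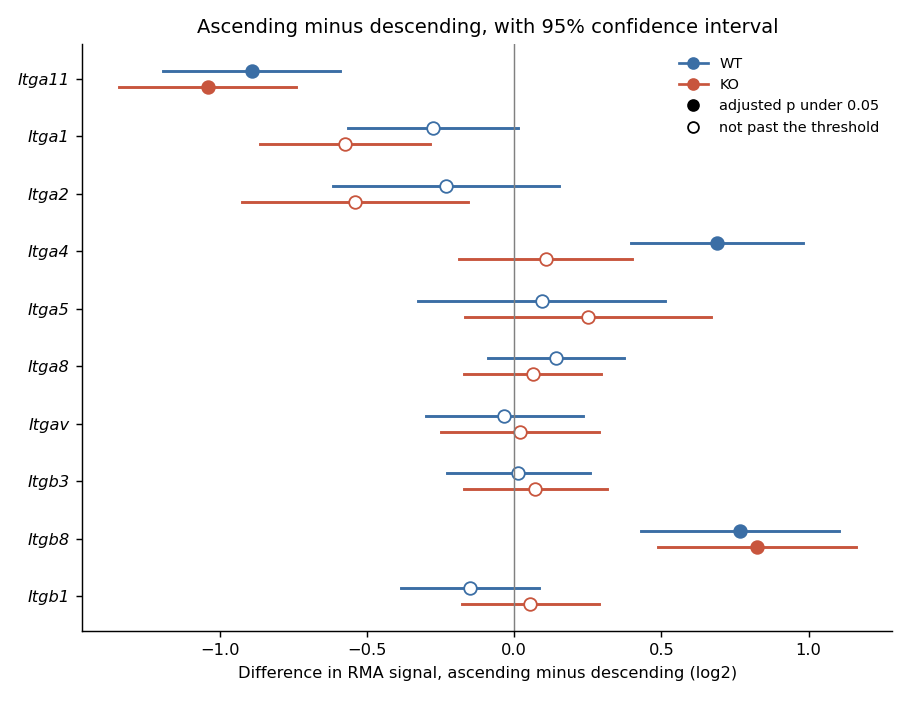
Difference in signal, ascending minus descending (log2), for each of the 10 integrin subunits in WT and KO aorta, with 95% confidence intervals from limma. Itga11 lies at -0.89 in the WT and -1.04 in the KO, Itgb8 lies at 0.77 and 0.82, and Itga4 lies at 0.69 in the WT and 0.11 in the KO.

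Itga11 was lower in the ascending segment by 0.89 on the log2 scale in the WT (difference -0.89, SE 0.13, limma adjusted p = 0.0179) and by 1.04 in the KO (difference -1.04, SE 0.13, limma adjusted p = 0.0101), or 1.85-fold and 2.06-fold. In order of level the groups were WT ascending (5.65 ± 0.14, SD, n = 2), WT descending (6.54 ± 0.09), KO ascending (7.02 ± 0.17) and KO descending (8.06 ± 0.13), and no arrays of neighbouring groups overlapped. The WT segment call ended without any of the 4 WT arrays (adjusted p = 0.0627 to 0.118). The KO segment call ended without KO ascending replicate 1 or KO descending replicate 1 (0.0513 to 0.0676).

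Itgb8 was higher in the ascending segment by 0.77 in the WT (SE 0.15, limma adjusted p = 0.0462), or 1.70-fold, and by 0.82 in the KO (SE 0.15, limma adjusted p = 0.0368), or 1.77-fold. The 4 ascending arrays, at 6.24 to 6.68, were all above the 4 descending arrays, at 5.59 to 5.78. The WT call ended without any of the 4 WT arrays (adjusted p = 0.17 to 0.232) or either KO descending array (0.073). The KO call ended without KO ascending replicate 2 or either KO descending array (0.112 to 0.181) and without any WT array (0.0587 to 0.068).

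Itga4 was higher in the ascending segment of the WT by 0.69 (SE 0.13, limma adjusted p = 0.0407), or 1.61-fold, and its difference in the KO was 0.11 (interval -0.19 to 0.40, adjusted p = 0.848). That these differ was not shown, as the interaction above gives. The WT call ended without any 1 of the 8 arrays, with adjusted p up to 0.222. By level the groups of Itga4 were WT descending (7.77 ± 0.22), WT ascending (8.46 ± 0.06), KO descending (9.19 ± 0.12) and KO ascending (9.30 ± 0.03), of which the KO groups overlapped. Itgb3 had the same level in both segments to within its spread, with 8.07 ± 0.06 and 8.06 ± 0.01 in the WT ascending and descending aorta and 8.69 ± 0.12 and 8.61 ± 0.07 in the KO.

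With both genotypes averaged, Itgb8 (0.80, SE 0.10, limma adjusted p = 0.00439) and Itga4 (0.40, SE 0.09, adjusted p = 0.0497) were higher in the ascending segment. Itga11 (-0.97, SE 0.09, adjusted p = 0.000957) and Itga1 (-0.43, SE 0.09, adjusted p = 0.0357) were lower there. All genes gave 1.5% higher and 2.57% lower. The Itga11 and Itgb8 calls stood without any 1 array. The Itga1 call ended without 6 of the 8 arrays, the exceptions being WT ascending replicate 2 and KO ascending replicate 2 (adjusted p = 0.0944 to 0.118 where it ended). The Itga4 call ended without any array but WT descending replicate 2 (0.0774 to 0.147). Itga2, which lies next to Itga1 on the chromosome in the RefSeq gene table, was lower in the ascending segment by a difference of -0.39 (SE 0.12) and did not pass (adjusted p = 0.137). The 3 collagen receptor alpha subunits among the members thus all had lower mean signals in the ascending segment, 2 of 3 past the test. Itga10, an integrin subunit outside the members, had no probe set of a single symbol and was not read. The remaining members, Itga5, Itga8, Itgav, Itgb1 and Itgb3, had differences between -0.05 and 0.17 and did not pass. Markers of nerve and Schwann cells, fat and endothelium moved with segment. The 7 tested genes of nerve and Schwann cells summed, on the linear scale, to 358 to 392 on the 4 ascending arrays and 950 to 1377 on the 4 descending arrays. In the WT, 5 of the 7 were lower in the ascending segment, and the neuronal gene Stmn2 was at 7.24 to 7.58 on the ascending and 8.97 to 9.51 on the descending arrays. With genotypes averaged, 6 of 9 fat markers (median -0.89) and 5 of 10 endothelial markers (median -0.26) were lower in the ascending segment, and 0 of either list were higher. The part of these cells in the segment differences of the members was not tested.

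Genes that work with these receptors were read from 3 lists, also chosen with earlier results known. Of 16 other integrin subunits 12 were tested. In the ascending aorta 1 rose in the KO and 0 fell, the leukocyte subunit Itgb2. It was at 6.40 and 6.06 on the WT and at 6.92 and 6.99 on the KO arrays, a rise of 0.73 (SE 0.15, limma adjusted p = 0.0475) that ended without any 1 of the 8 arrays (0.0613 to 0.196). Among descending arrays 0 passed by limma, with 1 higher and 1 lower at an unadjusted p under 0.05, which 18.8% of all genes passed. Itgb5, another partner of Itgav, was at 9.71 and 9.55 in the WT ascending and at 10.04 and 9.88 in the KO ascending aorta. Its differences were 0.33 (SE 0.13, adjusted p = 0.215) and 0.42 (SE 0.13, adjusted p = 0.136), which did not pass. The medians of the 12 were 0.10 and 0.03.

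Of 33 ligands 30 were tested. In the ascending aorta 2 rose and 0 fell, with a median of 0.16. Thbs1, thrombospondin, a ligand of Itgav with Itgb3 among others, was at 9.18 and 8.72 in the WT and at 10.48 and 10.56 in the KO, a rise of 1.57 (SE 0.17, limma adjusted p = 0.00578). Ccn1, a matricellular ligand of the same receptor, was at 9.32 and 9.64 in the WT and at 10.65 and 11.02 in the KO, a rise of 1.36 (SE 0.24, adjusted p = 0.0275) that ended without any of the 4 ascending arrays (0.0819 to 0.115). Both KO arrays of each gene were above both WT arrays.

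In the descending aorta 6 ligands rose and 0 fell, with a median of 0.19. Thbs1 rose by 1.12 (SE 0.17, limma adjusted p = 0.0214), from 8.80 and 8.64 to 9.99 and 9.70, and the call ended without any of the 4 descending arrays (0.0511 to 0.117). Ccn2, a relative of Ccn1, rose by 0.67 (SE 0.12, adjusted p = 0.037), from 11.03 and 10.77 to 11.61 and 11.52. The Ccn2 call ended without any 1 of the 8 arrays (0.0505 to 0.163). Ccn2 was also higher in the ascending aorta, by 0.56, and did not pass there (limma adjusted p = 0.0503). Ccn1 was higher in the descending aorta by 0.86 and did not pass (limma adjusted p = 0.104). Tgfb3, a TGF-beta ligand, rose by 0.69 (adjusted p = 0.0472) and Fbn2, fibrillin-2, by 0.64 (adjusted p = 0.0479), and both calls ended without any 1 of the 8 arrays (0.0503 to 0.201 and 0.0556 to 0.244). These 2 genes were named after their values were seen.

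The fibrinogen chains Fgb and Fgg, ligands of Itgav and of platelet receptors with Itgb3, also rose, by 2.54 (SE 0.33, adjusted p = 0.0127) and 2.82 (SE 0.51, adjusted p = 0.037). Fgb was at 5.78 and 5.34 in the WT and at 7.53 and 8.67 in the KO descending aorta, and KO descending replicate 2 was the highest array. The Fgb call ended without either WT descending array (0.0804 to 0.0865), and the Fgg call without any array but the KO descending ones (0.0555 to 0.155). Fibrinogen is made in liver. Of 8 liver markers other than the fibrinogen chains, 5 rose and 0 fell in the same comparison, with summed levels of 625 and 481 in the WT and of 1438 and 3509 in the KO descending aorta. Their part in the fibrinogen result was not tested. Fibronectin itself, Fn1, differed by 0.07 (adjusted p = 0.763) and 0.15 (adjusted p = 0.462), and the collagen chain Col1a2 by 0.01 (adjusted p = 0.955) and 0.03 (adjusted p = 0.903). Vcam1, another ligand of Itga4, differed by 0.56 (SE 0.14, adjusted p = 0.0721) and 0.31 (SE 0.14, adjusted p = 0.268), and none of these passed. The ascending Vcam1 difference passed with a filter at the 50th percentile (adjusted p = 0.0399), a trended robust prior (0.0241) or the replicate block (0.0474). In each segment 24 of the 30 ligands had a positive difference. Among the lower ones, Npnt, nephronectin, differed by -0.75 and -0.83 (limma adjusted p = 0.217 and 0.181). Lama2, a laminin chain, differed by -0.57 and -0.22 (limma adjusted p = 0.0615 and 0.416).

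Of 49 activators, adaptors and focal adhesion genes 43 were tested. In the ascending aorta 0 passed by limma, with 9 higher and 4 lower at an unadjusted p under 0.05, and the median was 0.03. Of all genes, 19.1% passed that unadjusted threshold there. In the descending aorta 1 rose and 0 fell. It was Arhgef7, an exchange factor for Rac and Cdc42 found at focal adhesions, at 7.09 and 7.23 in the WT and at 7.80 and 7.93 in the KO. The rise was 0.71 (SE 0.12, limma adjusted p = 0.0341) and ended without any of the 4 descending arrays (0.108 to 0.202). Rsu1, a component of the complex that links integrins to actin, differed by -0.12 (adjusted p = 0.575) and 0.07 (adjusted p = 0.773). With both segments averaged, 7 of these 43 genes rose and 2 fell. Of the 30 ligands 9 rose and 2 fell, and of the 12 other integrin subunits 2 rose and 0 fell. Over all genes 6.21% rose and 5.22% fell in that comparison. Between segments 0 genes of any of the 3 lists passed in either genotype by limma. Of all genes, 12.3% in the WT and 12.1% in the KO had an unadjusted p under 0.05. At an unadjusted p under 0.05 the ligands gave 6 higher and 1 lower in the WT and 2 higher and 6 lower in the KO, the adaptors 3 higher and 2 lower in the WT and 6 higher and 4 lower in the KO, and the other integrins 1 higher and 1 lower in the WT and 3 higher and 0 lower in the KO.

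**Figure D4:**
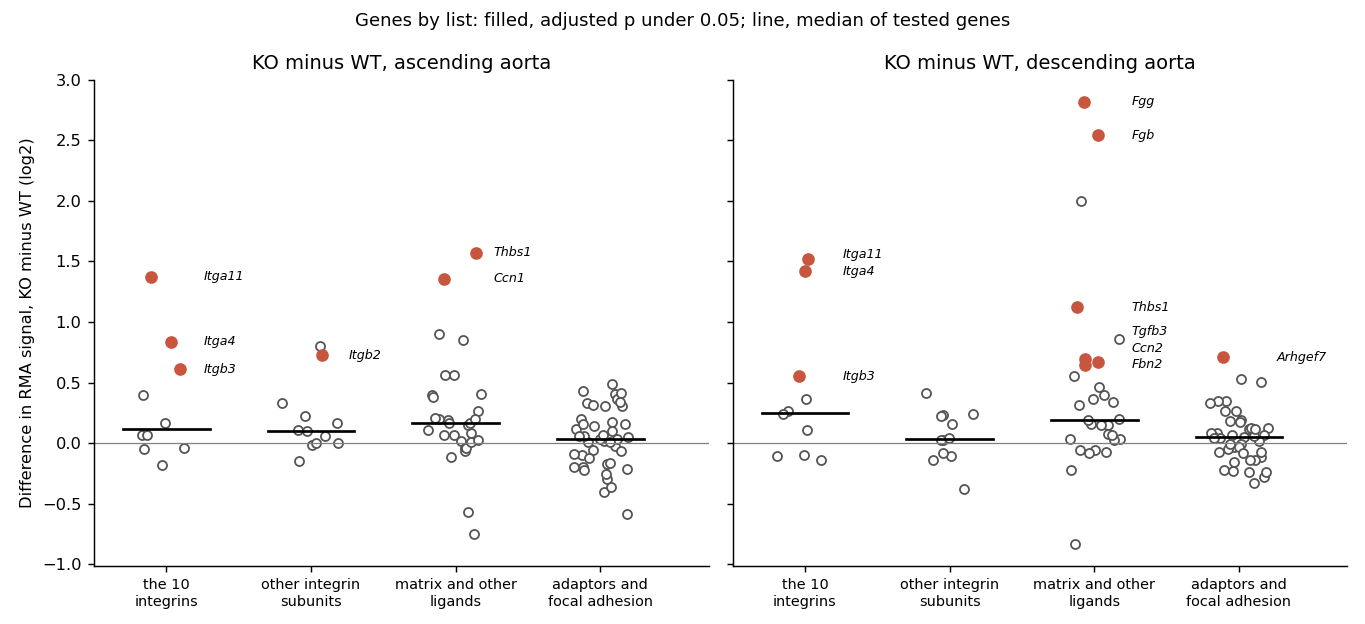
Difference in signal, KO minus WT (log2), of each tested gene in the ascending and descending aorta, for the 10 integrins, 12 other integrin subunits, 30 ligands and 43 adaptor and focal adhesion genes. Filled points have an adjusted p under 0.05 and are named, and the lines are list medians, which lie between 0.03 and 0.25.

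Cell types that carry these integrins were read from marker lists, summed on the linear scale. Smooth muscle markers gave 15446 to 16736 on the KO ascending and 16299 to 16469 on the WT ascending arrays, and 15428 to 16500 on the KO descending and 15731 to 16253 on the WT descending arrays. These ranges overlapped in both segments, while fibroblast and endothelial sums were lower in the KO in both. The 10 endothelial markers summed to 4679 to 4938 in the WT and 3894 to 3915 in the KO ascending aorta, and to 5613 to 5880 in the WT and 4736 to 4841 in the KO descending aorta. The 9 fibroblast markers summed to 12894 to 13251 in the WT and 10923 to 11385 in the KO ascending aorta, and to 12421 to 12870 in the WT and 10599 to 11226 in the KO descending aorta. Single fibroblast genes moved both ways, with 1 rising and 2 falling in the ascending and 2 rising and 2 falling in the descending aorta. Meox1 rose by 0.66 and 0.95 and Dpt fell by 0.55 and 0.65. The endothelial markers gave 0 rising and 2 falling in the ascending and 0 rising and 1 falling in the descending aorta. Itga11 is known as a fibroblast collagen receptor, and the part of these cells in its rise was not tested.

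Fat markers were lower in the KO. They summed to 6848 to 8576 in the WT and 3619 to 4606 in the KO ascending aorta, where 4 of 9 fell (median -1.07) and 0 rose. In the descending aorta, where 1 of 9 fell (median -0.55) and 0 rose, they summed to 10725 to 11096 in the WT and 7311 to 8418 in the KO. The part of fat tissue in the members' differences was not tested.

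Macrophage and neutrophil marker sums were higher in the KO in both segments. Macrophage markers summed to 2862 to 2907 in the WT and 3291 to 3559 in the KO ascending aorta, and to 3240 to 3403 in the WT and 3899 to 3948 in the KO descending aorta, and 2 of 10 rose in each segment. Neutrophil markers summed to 602 to 1045 in the WT and 3361 to 3420 in the KO ascending aorta, where 6 of 10 rose. On the descending arrays they summed to 952 to 1398 in the WT and 1813 to 2812 in the KO, and there 0 of 10 passed by limma. At an unadjusted p under 0.05, which 18.8% of all genes passed, 6 were higher and 0 lower. Of 7 lymphocyte markers, 0 rose and 0 fell in either segment. Their median differences were -0.32 in the ascending and 0.02 in the descending aorta. Itga4 is carried by monocytes and other leukocytes, and the part of these cells in its rise was not tested.

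Platelets carry Itgb3 paired with Itga2b. Platelet markers summed to 1643 to 1722 in the WT and 2579 to 2783 in the KO ascending aorta, where 5 of 8 rose, with a median difference of 0.75. In the descending aorta they summed to 1904 to 2084 in the WT and 1778 to 2124 in the KO, with a median difference of -0.08. By limma 0 of 8 passed there, with 0 higher and 0 lower at an unadjusted p under 0.05, which 18.8% of all genes passed. The part of platelets in the rise of Itgb3 was not tested. Itga2b itself was at 5.73 and 5.92 in the WT and at 6.29 and 5.81 in the KO ascending aorta, a difference of 0.22 (adjusted p = 0.548). On the descending arrays it was at 5.75 and 5.65 in the WT and at 5.43 and 5.75 in the KO, a difference of -0.11 (adjusted p = 0.798).

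**Figure D5:**
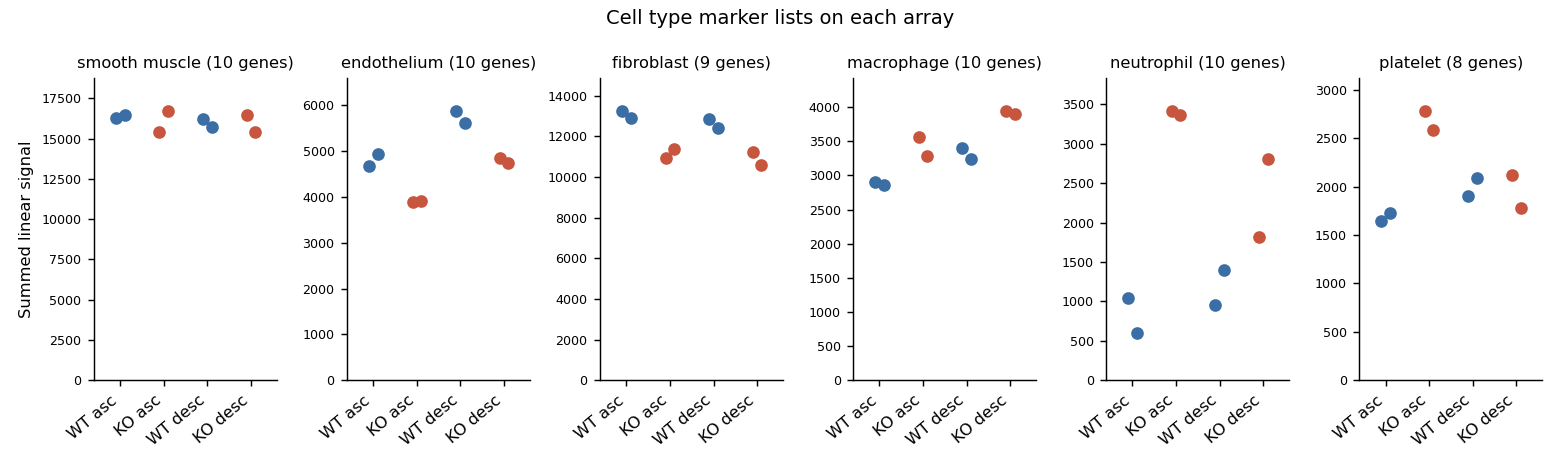
Summed linear signal of 6 cell type marker lists on each of the 8 arrays, in 4 groups of 2. Neutrophil sums are highest in the KO ascending aorta, platelet sums are higher in the KO in the ascending but overlap in the descending aorta, and smooth muscle sums of KO and WT overlap in each segment.

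Genes whose signal most closely followed, over the 8 arrays, that of the 3 members that rose in the KO were named by Pearson correlation among 15135 candidate genes. The 8 points share the 4 groups, so these values are descriptive. For Itga11 they were Marco (0.990), a macrophage scavenger receptor, Loxl3 (0.989), a relative of Lox, and Septin11 (0.986). For Itga4 they were Larp1 (0.983), Sec24d (0.982) and Nupr1 (0.979). For Itgb3 they were Rgs19 (0.990), the fractalkine receptor gene Cx3cr1 (0.987) and Nolc1 (0.987). Loxl3 was at 7.34 and 7.37 on the WT ascending arrays and 8.04 on KO descending replicate 1, which are also the groups where Itga11 was lowest and highest. Cx3cr1 was at 7.55 to 7.81 on the 4 WT arrays and at 8.41 to 8.70 on the 4 KO arrays.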

How the data were processed

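The authors deposited log2 signals per probe set, made with RMA in Affymetrix Expression Console per the submitters' processing notes, of which the sources used here give no version or option. Per the labels' protocols, NuGEN's Ovation Pico WTA system amplified the RNA and the Encore kit added biotin. Array medians were 5.11 to 5.19, and every value column was used.

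Of 41345 probe sets, 23525 had 1 symbol in the platform annotation, 1810 several (not used) and 16010 none. A gene was read from its brightest single-symbol probe set. Dim genes, under the 25th percentile of mean signal (4.11), were dropped, leaving 16638.

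Models were fitted per gene by lmFit and eBayes of limma 3.58.1 (R 4.3.3), 1 coefficient per group over all 8 arrays (residual df 4, prior df 4.51), with 2-sided p-values adjusted by Benjamini-Hochberg. The fit takes the 8 pools as independent, and p-values measure the spread between pools. No label ties a replicate number to a litter or day, so pools were not paired. The method was tested on simulated data.

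The members, the gene lists and the marker lists were chosen with earlier results of these data known. Named genes were all members and, per list, genes taken by a rule in each comparison within a segment or genotype. The rule took all called genes where 5 or fewer were called and otherwise the 4 with the smallest p, with the brightest uncalled gene. The 3 genes most correlated with each of Itga11, Itga4 and Itgb3 were also named. The other genes given with values are ligands and partners of the members or cell markers, picked with their values known. The alternatives tried were other filters, priors and scalings, array weights, a replicate block, other probe set rules, a test against 1.2-fold, a fit of the compared arrays alone, and each array left out in turn. Promoter sequences are RefSeq's, build GRCm38.p6. Plots used matplotlib 3.10.9 (python 3.11.15).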

Additional observations from a re-analysis of the deposited data

How the results depend on the processing

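No named member's called difference changed sign under any alternative run. Rises of members in the KO numbered 3 in each segment. With all 41345 probe sets tested separately, which adjusts over more tests, there were 0 in the ascending and 0 in the descending aorta, and a test against 1.2-fold gave 1 in the ascending. With 1 array left out they numbered 1 to 3 in the ascending aorta, 2 each time in the descending aorta and 3 each time with segments averaged. Falls, and members called in the interaction, stayed at 0 each time. For WT segments, 2 members higher in the ascending aorta became 1 with cyclic loess, median shift or quantile scaling or a fit of only the compared arrays, and 0 with no filter, the replicate block, all probe sets or the 1.2-fold test. The 1 lower became 0 with all probe sets or the 1.2-fold test. For KO segments, the 1 higher became 0 with no filter, all probe sets, only the compared arrays or the 1.2-fold test. The 1 lower became 2 with a filter at the 50th percentile or a trended robust prior, and 0 with all probe sets. With genotypes averaged, 2 higher became 1 with no filter, each of the 3 scalings, array weights, the replicate block, all probe sets or the 1.2-fold test, and 2 lower became 1 with no filter, all probe sets or the 1.2-fold test. Leaving out 1 array gave 0 to 1 in each direction within a genotype, and 1 to 2 higher and 1 to 3 lower averaged. The causes were not tested.

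With the replicate number as a block, 4 calls ended, namely Itgb3 in the descending KO (adjusted p = 0.0518), and Itga4 (0.0626) and Itgb8 (0.0581) between WT segments and Itga4 averaged (0.0744). No other member lost its call. Deviations of same-numbered arrays correlated between -0.0952 and 0.126, which cannot show whether pools shared pups. The numbers were not taken as pairs because no label ties them to a litter or day.

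Counts over all genes moved more. The ascending KO minus WT count of 455 ranged from 9 with all probe sets to 1014 with a trended robust prior, the descending count of 380 from 4 to 919, the WT segment count of 247 from 21 to 444, the KO segment count of 247 from 13 to 430 and the interaction from 0 to 11. With segments averaged 1902 ranged from 162 to 2604, and with genotypes averaged 677 from 176 to 951. No scaling moved the median of all genes by more than 0.0251. The 2 pools per group limit the precision.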
